A study of Culex quinquefasciatus and Culex pipiens molestus with 2 samples.

Results

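The 69 transcript models examined here are those whose product description names an opsin, an arrestin, a transient receptor potential (TRP) channel, a phospholipase C, a protein that binds or is named for retinal, retinol or retinoids, or the scaffold protein INAD, out of 16198 models with reads in at least 1 library. They comprise 12 opsins, 6 arrestins and 51 other models, and 0 models were described as INAD. RNA was taken from females of a laboratory strain of Culex pipiens molestus, a form of the house mosquito often found in underground water of cities, and from females of a laboratory strain of Culex pipiens quinquefasciatus, the southern house mosquito. In each taxon the RNA of 30 females was pooled into 1 library of polyadenylated RNA, so the effects of taxon and of library cannot be told apart. No difference has a replicate check, and p-values were not computed. Depth was 9.787 M (mega) unique reads in molestus and 10.166 M in quinquefasciatus. The tables carry only the abbreviations Cxm and Cxq, which were read as molestus and quinquefasciatus, and a wrong reading would turn every direction round. No source used here gives the females' age, feeding state, time of day or light regime.

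In the insect eye, light isomerises a retinal chromophore bound to an opsin, a receptor coupled to a G protein of the G(q) type. The activated G(q) alpha subunit switches on a phospholipase C of the beta type, and TRP channels then open and depolarise the photoreceptor. Arrestin binds the activated opsin and ends its signal. Related proteins work elsewhere in the body: beta-arrestins act on many other receptors, arrestin domain-containing proteins are adaptors in the uptake and ubiquitination of membrane proteins, and several TRP channels of Drosophila, such as painless and pyrexia, serve the sensing of heat or touch. The member list therefore mixes photoreceptor genes with genes of other tissues, and the classes are described separately.

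The photoreceptor genes at the core of the list were lower in the molestus library. The opsins together held 1.308% of the reads of the molestus library (95% interval 1.301 to 1.315), against 2.591% of the quinquefasciatus library (2.582 to 2.601). Arrestins held 1.060% of molestus reads (1.054 to 1.067), against 2.465% of quinquefasciatus reads (2.456 to 2.475). The 51 other members held 0.147% (0.144 to 0.149) and 0.238% (0.235 to 0.241) in the same order. Intervals of shares and folds are exact at the 95% level and describe counting error alone, since reads copied by PCR are not independent molecules. In whole females, fewer photoreceptor cells and less of these RNAs per cell cannot be told apart.

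Levels are given as RPKM, reads per kilobase of model length per M reads, and a fold is the ratio of RPKM, molestus over quinquefasciatus. Counts of models use the log2 ratio of (RPKM + 1), which understates the ratio of low models, over models that reached 1 RPKM in either library. Of the 69 members 55 were compared in this way, and 8 were higher by 2-fold or more in molestus (14.5%), 15 in quinquefasciatus (27.3%). Over all 12789 models compared, 22.8% were higher by 2-fold or more in molestus and 18.0% in quinquefasciatus. The members' median log2 ratio was -0.67, beside 0.18 over all models. The counting interval of the fold lay on 1 side of 1 for all 8 and all 15 of these members. With the libraries rescaled by their median ratio, 4 members were counted in molestus and 23 in quinquefasciatus, beside 2055 and 3029 of all models, against 2914 and 2303 as deposited. TMM factors gave 6 and 23 members.

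The most abundant members carried this direction. Of the 11 members with at least 100 RPKM in either library, 10 had a ratio below 0 and 6 were at least 2-fold higher in quinquefasciatus, with a median log2 ratio of -1.10. All 1391 models of that abundance had a median of 0.45, and 16.0% of them were at least 2-fold higher in quinquefasciatus. The exception among the 11 was a retinoid X receptor (CPIJ016024), which is no photoreceptor protein. Members of 10 to under 100 RPKM went the other way, as did all models of that level: the 14 members had a median of 0.40, beside 0.47 for all 6638 models. Of these members 5 were at least 2-fold higher in molestus and 3 in quinquefasciatus (35.7% and 21.4%). Of all models of that level 28.4% and 13.8% were so. Members of 1 to under 10 RPKM, 30 in number, had a median of -0.48, beside -0.35 for all 4760 models in that range.

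**Figure D1:**
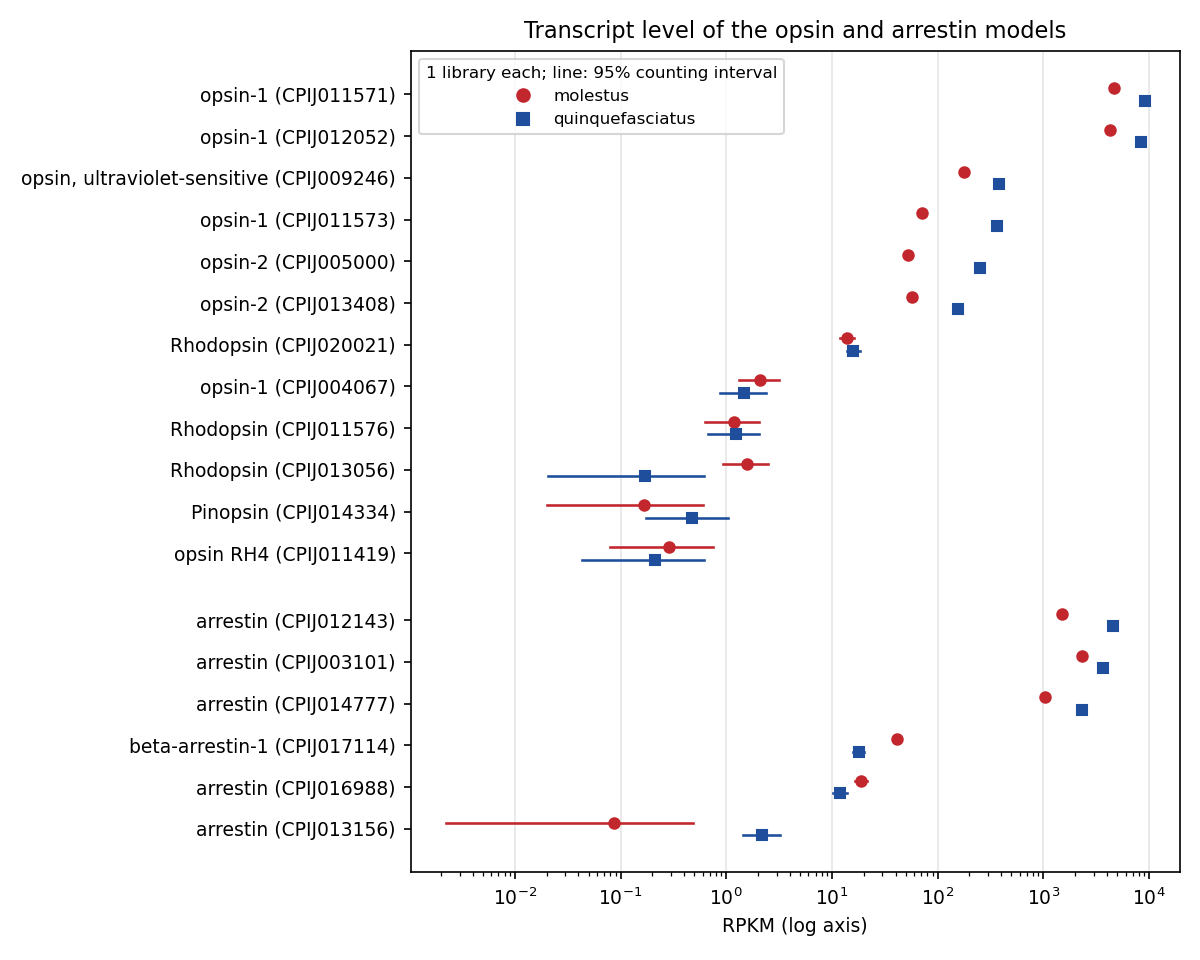
Transcript level (RPKM, log axis) of the 12 opsin and 6 arrestin models in the molestus library (circles) and the quinquefasciatus library (squares), with exact 95% counting intervals as lines where they are wider than the symbol. The 6 most abundant opsins and the 3 most abundant arrestins lie to the left in molestus, while beta-arrestin-1 lies to the right.

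Opsin transcripts were dominated by a pair of opsin-1 models. CPIJ011571 had 4678 RPKM from 66111 reads in the molestus library, against 9083 RPKM from 133329 reads in the quinquefasciatus library, a fold of 0.515 (0.510 to 0.520). CPIJ012052 had 4302 RPKM from 57219 reads in molestus, against 8324 RPKM from 114997 reads in quinquefasciatus, a fold of 0.517 (0.512 to 0.522). By RPKM this pair ranked 9 and 11 among all models of the molestus library and 6 and 8 in the quinquefasciatus library, and it held 95.9% and 93.7% of the summed opsin RPKM. CPIJ011571 stood at 1.09 times CPIJ012052 in both libraries. Both lay just short of the 2-fold count, with log2 ratios of -0.96 and -0.95, and passed it under each rescaling tried. Reads were assigned uniquely, so if the copies are near-identical in sequence, which was not examined here, their own levels are uncertain.

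The less abundant opsins with more than 100 RPKM in either library were all lower in molestus, and by more than the leading pair. A further opsin-1 model (CPIJ011573) had 72.0 RPKM in molestus, against 365 RPKM in quinquefasciatus, a fold of 0.197 (0.184 to 0.211), the lowest ratio of the class. The opsin-2 model CPIJ005000 had 52.2 RPKM in molestus, against 251 RPKM in quinquefasciatus, a fold of 0.208 (0.190 to 0.227). The other opsin-2 model (CPIJ013408) had 57.4 RPKM in molestus, against 157 RPKM in quinquefasciatus, a fold of 0.365 (0.333 to 0.400). The opsin-2 models thus lay close together in molestus and further apart in quinquefasciatus. The ultraviolet-sensitive opsin (CPIJ009246), named for its short-wavelength light sense, had 178 RPKM in molestus, against 384 RPKM in quinquefasciatus, a fold of 0.465 (0.442 to 0.488). These 4 models were the opsins at least 2-fold higher in quinquefasciatus, out of 10 compared (40.0%, beside 18.0% of all models).

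The remaining opsins were scarce and showed no common direction. A rhodopsin (CPIJ020021) had 13.95 RPKM in molestus, against 15.96 RPKM in quinquefasciatus, a fold of 0.874 whose interval included 1 (0.709 to 1.08). The opsin-1 model CPIJ004067 had 2.09 RPKM from 23 reads in molestus, against 1.49 RPKM from 17 reads in quinquefasciatus, and the rhodopsin CPIJ011576 had 1.18 RPKM from 13 reads, against 1.23 RPKM from 14 reads. Neither difference exceeded counting error. The rhodopsin CPIJ013056 was the 1 of 10 compared opsins at least 2-fold higher in molestus (10.0%, beside 22.8% of all models). It had 18 reads in molestus against 2 reads in quinquefasciatus, a fold of 9.35 (2.24 to 83.1). Opsin RH4 (CPIJ011419), whose namesake in Drosophila is an ultraviolet opsin of inner photoreceptors, had 4 reads in molestus and 3 reads in quinquefasciatus. Pinopsin (CPIJ014334), named after an opsin of the bird pineal gland, had 2 reads in molestus and 6 reads in quinquefasciatus. These last differences were not detectable at this depth. The median log2 ratio of the 10 compared opsins was -0.95.

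Arrestins split into an abundant trio that was lower in molestus and scarcer models of either direction. The arrestin CPIJ012143 had 1493 RPKM from 39254 reads in molestus, against 4611 RPKM from 125943 reads in quinquefasciatus, a fold of 0.324 (0.320 to 0.327). CPIJ014777 had 1035 RPKM from 27188 reads in molestus, against 2332 RPKM from 63639 reads in quinquefasciatus, a fold of 0.444 (0.437 to 0.450). CPIJ003101 had 2314 RPKM from 36514 reads in molestus, against 3699 RPKM from 60610 reads in quinquefasciatus, a fold of 0.626 (0.618 to 0.634). The 3 folds differed by more than counting error between these libraries, and the spread between pools is unknown. CPIJ003101 was the most abundant arrestin in molestus, with 47.2% of the summed arrestin RPKM against 34.7% in quinquefasciatus. CPIJ012143 was the most abundant in quinquefasciatus, with 30.4% in molestus against 43.2% in quinquefasciatus, while CPIJ014777 held 21.1% and 21.9%. By reads, without the correction for length, CPIJ012143 led in both libraries, with 37.8% of arrestin reads in molestus and 50.2% in quinquefasciatus, beside 35.2% and 24.2% for CPIJ003101.

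Beta-arrestin-1 (CPIJ017114), of the subfamily that desensitises receptors outside the eye, had 41.4 RPKM in molestus, against 17.9 RPKM in quinquefasciatus, a fold of 2.31 (1.99 to 2.69). It was the 1 of 6 arrestins counted as at least 2-fold higher in molestus (16.7%, beside 22.8% of all models). It was no longer counted under any of the rescalings. The arrestin CPIJ016988 had 19.0 RPKM in molestus, against 11.9 RPKM in quinquefasciatus, a fold of 1.59 (1.30 to 1.95). CPIJ013156 had 1 read in molestus and 26 reads in quinquefasciatus, a fold of 0.0399 (0.000974 to 0.243), and with CPIJ012143 and CPIJ014777 it made up the 3 of 6 arrestins at least 2-fold higher in quinquefasciatus.

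**Figure D2:**
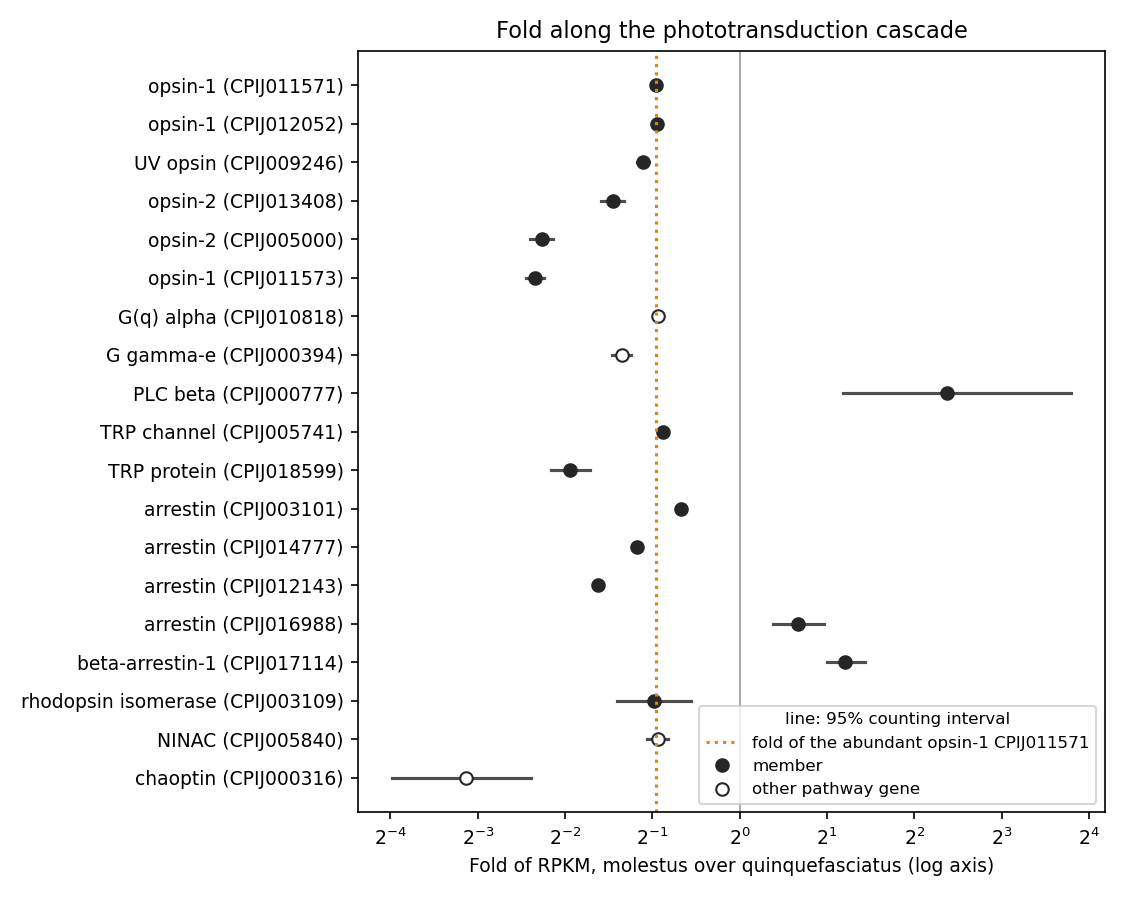
Fold of RPKM, molestus over quinquefasciatus (log axis), with exact 95% counting intervals, for named models along the phototransduction cascade, from receptor to G protein, phospholipase C, channel and arrestin, and for genes of rhodopsin maturation and photoreceptor structure. Filled circles are members and open circles other pathway genes, and the dotted line at 0.515 marks the most abundant opsin-1, on which G(q) alpha, the TRP channel CPIJ005741, the rhodopsin isomerase and NINAC lie closely.

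To separate the balance among photoreceptor genes from their common level, each was expressed per 100 RPKM of the pair of abundant opsin-1 models. The G(q) alpha subunit (CPIJ010818), the transducer between opsin and phospholipase C, stood at 5.84 in molestus and 5.74 in quinquefasciatus, a ratio of 1.02 (0.984 to 1.05). The TRP channel CPIJ005741 stood at 2.72 in molestus and 2.58 in quinquefasciatus, a ratio of 1.05 (1.03 to 1.08). NINAC (CPIJ005840), a myosin-kinase of the photoreceptor in Drosophila, stood at 0.221 in molestus and 0.219 in quinquefasciatus, a ratio of 1.01 (0.932 to 1.09). The rhodopsin-specific isomerase CPIJ003109, whose Drosophila namesake NinaA carries newly made rhodopsin out of the endoplasmic reticulum, stood at 0.129 in molestus and 0.131 in quinquefasciatus, a ratio of 0.986 (0.740 to 1.31). These 4 genes were singled out after their values were seen, for ratios near 1. Other genes tied to photoreceptors had ratios further from 1: the eye gamma subunit CPIJ000394 had 0.759 (0.703 to 0.818) and the TRP protein CPIJ018599 had 0.505 (0.434 to 0.588). The chaoptin CPIJ000316 had 0.221 (0.132 to 0.370), CPIJ012887 had 0.358 (0.277 to 0.463) and CPIJ017601 had 0.407 (0.302 to 0.549). The prominin-1 model CPIJ008251 had 0.468 (0.382 to 0.573). Above 1 were calnexin (CPIJ009164), with 1.26 (1.19 to 1.33), and the prominin CPIJ002145, with 3.13 (2.74 to 3.58). A ratio near 1 was not confined to models named for the photoreceptor: the painless model CPIJ006747 had 1.01 (0.827 to 1.23). A G protein beta subunit (CPIJ012724), also named after its value was seen, had 0.856 (0.759 to 0.964). Other beta subunit models lay further from 1: CPIJ007403 had 0.298 (0.142 to 0.627) and CPIJ007404 had 2.20 (1.99 to 2.44). CPIJ002520 had 7.72 (6.32 to 9.43) and CPIJ016403, with few reads in quinquefasciatus, 39.6 (12.4 to 126). The descriptions of these models do not say which belongs to the eye.

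Arrestins and the rarer opsins had ratios on both sides of 1. Per 100 RPKM of opsin-1, the arrestin CPIJ012143 stood at 16.6 in molestus and 26.5 in quinquefasciatus, a ratio of 0.628 (0.619 to 0.636). CPIJ003101 went the other way, at 25.8 in molestus and 21.2 in quinquefasciatus, a ratio of 1.21 (1.20 to 1.23), and CPIJ014777 stood at 11.5 and 13.4, a ratio of 0.860 (0.847 to 0.874). Among opsins, CPIJ011573 had a ratio of 0.382 (0.356 to 0.410), CPIJ005000 of 0.403 (0.368 to 0.440), CPIJ013408 of 0.708 (0.647 to 0.775) and the ultraviolet-sensitive opsin of 0.900 (0.857 to 0.946). The rhodopsin CPIJ020021 lay on the other side, with a ratio of 1.69 (1.38 to 2.08), as did beta-arrestin-1 (CPIJ017114) with 4.49 (3.87 to 5.20) and the arrestin CPIJ016988 with 3.09 (2.53 to 3.76). These proportions do not depend on how the libraries are scaled. Their intervals are normal approximations on the log scale for counting error, and the spread between females or pools is unknown.

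TRP channels, the cation channels that carry the light response and several other senses, were also led by 1 model. CPIJ005741 had 245 RPKM from 9888 reads in molestus, against 450 RPKM from 18892 reads in quinquefasciatus, a fold of 0.544 (0.531 to 0.557), and it held 89.9% and 90.2% of the summed RPKM of the 9 TRP models. The model described as transient receptor potential protein (CPIJ018599) had 6.10 RPKM in molestus, against 23.4 RPKM in quinquefasciatus, a fold of 0.261 (0.223 to 0.304). It was the 1 of 6 compared TRP models past 2-fold in quinquefasciatus (16.7%, beside 18.0% of all models). In molestus 0 were past it, beside 22.8% of all models. The models named painless, after a channel that Drosophila needs to avoid noxious heat, were 4 in number, 3 of them lower in molestus. CPIJ006747 had 5.40 RPKM in molestus, against 10.4 RPKM in quinquefasciatus, a fold of 0.521 (0.424 to 0.638). CPIJ014495 had 148 reads in molestus, against 217 reads in quinquefasciatus, a fold of 0.708 (0.571 to 0.877), and CPIJ002572 had 5 against 6 reads, which does not exceed counting error. The exception was CPIJ002574, with 10.4 RPKM in molestus, against 7.46 RPKM in quinquefasciatus, a fold of 1.40 (1.18 to 1.65). Pyrexia (CPIJ010619) had 31 reads in molestus and 37 reads in quinquefasciatus. TRP-gamma (CPIJ001522) had 5 and 10 reads in the same order, both under 1 RPKM. The class median was -0.62.

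Phospholipase C models were few and went both ways. The model described as phospholipase C beta (CPIJ000777), the type that acts in photoreceptors, is only 321 bases long and had 35 reads in molestus, against 7 reads in quinquefasciatus, or 11.1 against 2.15 RPKM, a fold of 5.19 (2.27 to 13.9). Its direction is opposite to that of opsin-1, G(q) alpha and the leading TRP channel. Phospholipase C delta (CPIJ018676) had 1.73 RPKM in molestus, against 6.41 RPKM in quinquefasciatus, a fold of 0.270 (0.216 to 0.335). A model named for the variant-surface-glycoprotein phospholipase C of trypanosomes (CPIJ009053) had 17.2 RPKM in molestus, against 4.95 RPKM in quinquefasciatus, a fold of 3.47 (2.52 to 4.86). No model of the list had both the name of a photoreceptor-type phospholipase C and a level near that of G(q) alpha, at 525 RPKM in molestus against 999.8 RPKM in quinquefasciatus.

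**Figure D3:**
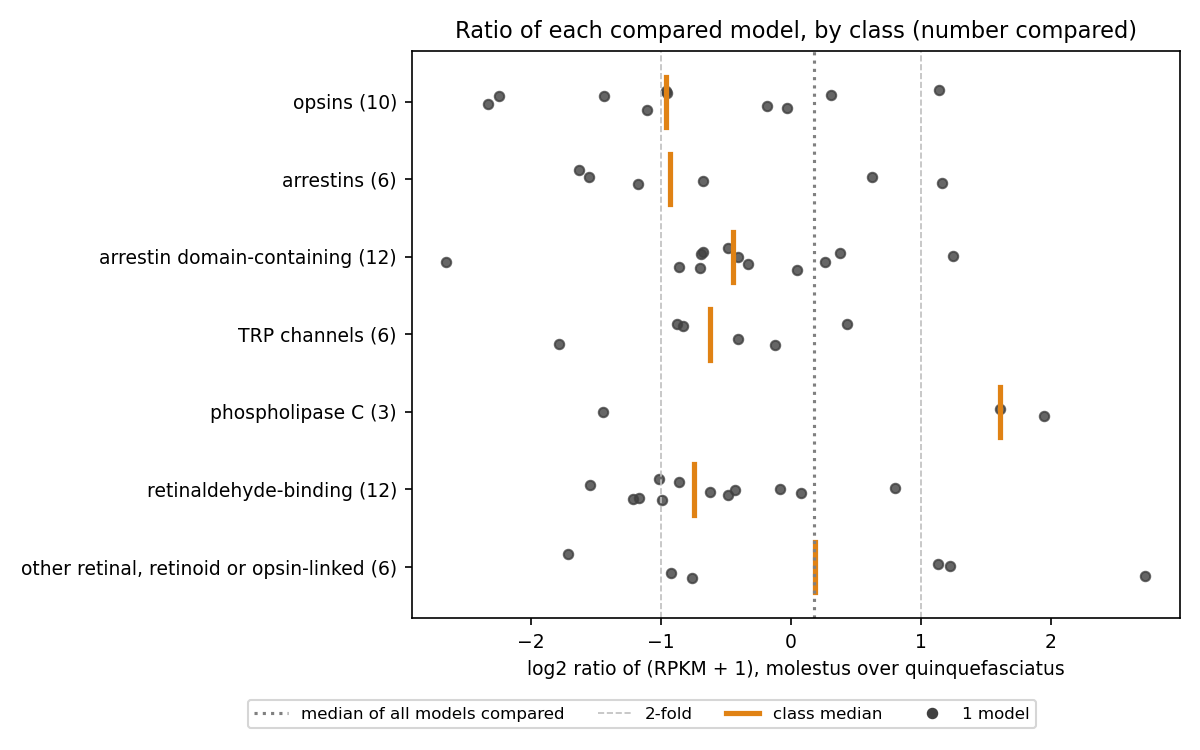
Log2 ratio of (RPKM + 1), molestus over quinquefasciatus, of each of the 55 compared members by class, with the class median as an orange bar, 2-fold as dashed lines and the median of all 12789 compared models (0.18) as a dotted line. The medians of opsins (-0.95) and arrestins (-0.92) are lowest, and phospholipase C and the mixed retinal and retinoid class spread to both sides.

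Retinaldehyde-binding proteins, which carry the chromophore or related lipids in the retinoid cycle of vertebrate eyes and form a large family in insects, were scarce. The 16 models held 303 reads in molestus and 539 reads in quinquefasciatus, and the highest reached 6.22 RPKM in molestus and 11.0 RPKM in quinquefasciatus. Of the 12 compared, 0 were at least 2-fold higher in molestus and 4 in quinquefasciatus (0% and 33.3%), with a median log2 ratio of -0.74. Of all models of 1 to under 10 RPKM, where most of these lay, 12.2% and 24.5% were so, with a median of -0.35. CPIJ016075 had 3.11 RPKM in molestus, against 11.0 RPKM in quinquefasciatus, a fold of 0.283 (0.183 to 0.427), and CPIJ007057 had 1.45 RPKM in molestus, against 4.70 RPKM in quinquefasciatus, a fold of 0.310 (0.169 to 0.540). The other two, CPIJ014224 and CPIJ018186, named after their values were seen, had 7 and 2 reads in molestus, against 28 and 14 reads in quinquefasciatus. The model furthest in the other direction, CPIJ013456, had 78 reads in molestus and 41 reads in quinquefasciatus, a fold of 1.98 (1.34 to 2.96). CPIJ018178 had 0 reads in molestus and 8 reads in quinquefasciatus. Against a floor of 3 reads it was 2.57-fold lower in molestus, while its counting interval allows a difference as small as 1.64-fold. CPIJ011104 had 2 reads in molestus and 0 in quinquefasciatus, which gives no fold.

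The 9 members named for retinal or retinoids in other ways, or for enzymes that act on opsin or its partners, had no common direction and a median of 0.19 over the 6 compared. The retinal guanylate cyclases, named after the enzymes that make cGMP in vertebrate photoreceptors, went apart. CPIJ001417 had 4.91 RPKM in molestus, against 18.4 RPKM in quinquefasciatus, a fold of 0.267 (0.223 to 0.319). CPIJ015934 had 15.7 RPKM in molestus, against 1.53 RPKM in quinquefasciatus, a fold of 10.3 (6.31 to 17.7), the highest among members with at least 50 reads in the higher library. Another, CPIJ018493, had 2 reads in molestus and 11 in quinquefasciatus. A retinoid X receptor (CPIJ016024), whose insect counterpart pairs with the ecdysone receptor, had 105 RPKM in molestus, against 47.2 RPKM in quinquefasciatus, a fold of 2.22 (2.03 to 2.43). A further model of that name (CPIJ013369) had 4 reads in molestus and 13 reads in quinquefasciatus. The rhodopsin-sensitive cGMP phosphodiesterase CPIJ010144 had 17.0 RPKM in molestus, against 6.69 RPKM in quinquefasciatus, a fold of 2.55 (1.66 to 4.002). The rhodopsin-specific isomerase (CPIJ003109) had 11.6 RPKM in molestus, against 22.8 RPKM in quinquefasciatus, a fold of 0.508 (0.376 to 0.681). The retinal homeobox protein (CPIJ016464), a factor of early eye and brain development in vertebrates, had 1 read in molestus and 5 reads in quinquefasciatus.

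Arrestin domain-containing proteins, which share a fold with the arrestins but are not known as opsin partners, held together nearly equal levels, with a summed 82.5 RPKM in molestus and 88.9 RPKM in quinquefasciatus over 14 models. Of 12 compared, 1 was at least 2-fold higher in each library (8.33%), and the median was -0.44. Of all models 22.8% were so in molestus and 18.0% in quinquefasciatus. CPIJ008372 was the most abundant, with 41.9 RPKM in molestus, against 32.0 RPKM in quinquefasciatus, a fold of 1.31 (1.15 to 1.49). The models with the adjoining identifiers CPIJ008373 to CPIJ008378 lay between 0 and 6.36 RPKM in molestus and between 0.193 and 8.84 RPKM in quinquefasciatus. CPIJ011879 had 9.54 RPKM in molestus, against 3.45 RPKM in quinquefasciatus, a fold of 2.77 (1.84 to 4.27). CPIJ014453 was furthest the other way, with 8 reads in molestus and 110 reads in quinquefasciatus, a fold of 0.0755 (0.0318 to 0.154).

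**Figure D4:**
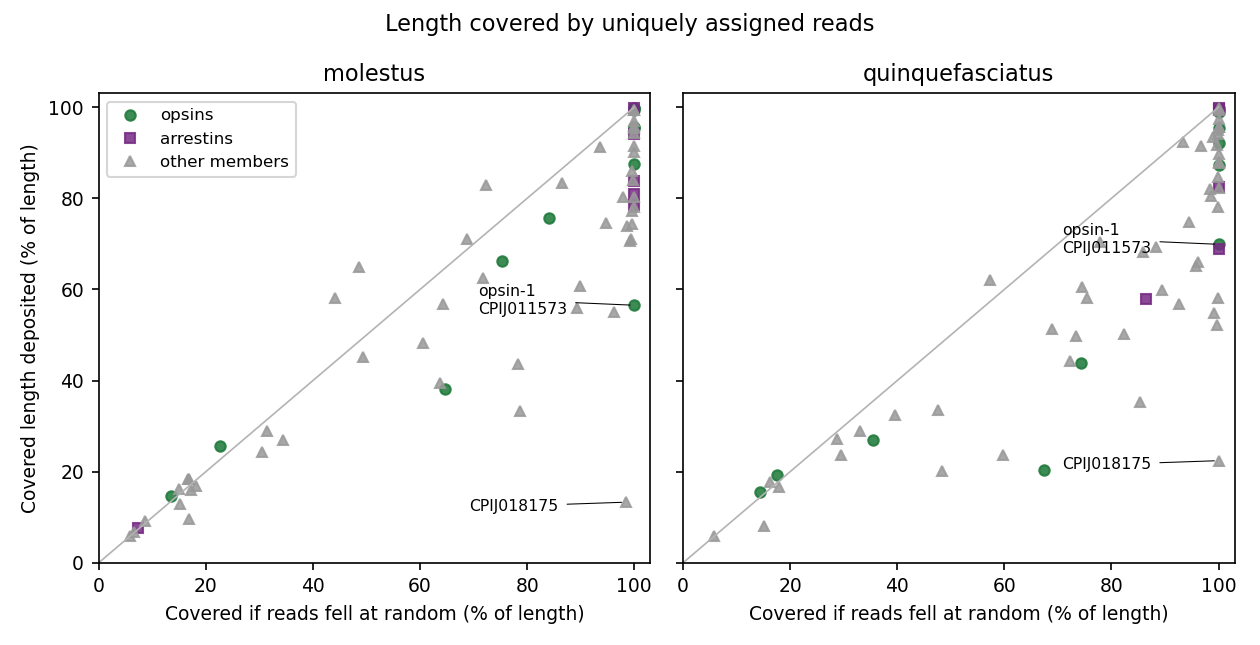
Percent of each model's length covered by reads, as deposited, against the percent that random placement of the same number of reads of 90 bases would cover, for members with reads in the molestus library (left) and the quinquefasciatus library (right). Most well-read members lie near the top right corner, while the opsin-1 model CPIJ011573 (56.5% and 69.9%) and the retinaldehyde-binding model CPIJ018175 (13.3% and 22.4%) lie far below the diagonal.

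The percent of model length covered by reads, a value that played no part in choosing the members, shows which levels rest on part of a model. The leading pair of opsin-1 models was covered over 95.4% and 99.9% of its length in molestus and 92.2% and 98.9% in quinquefasciatus. The opsin-1 model CPIJ011573 was covered over only 56.5% in molestus and 69.9% in quinquefasciatus, although its 943 and 4972 reads would cover all of it if they fell at random. The arrestin CPIJ014777 was covered over 83.8% in molestus and 99.4% in quinquefasciatus from 27188 and 63639 reads. Beta-arrestin-1 was covered over 78.5% and 68.9% in the same order, and the retinaldehyde-binding model CPIJ018175 over 13.3% and 22.4% from 46 and 95 reads. Among members whose reads would cover at least 90% by random placement, 8 of 34 in molestus and 10 of 39 in quinquefasciatus were covered over less than 75% (23.5% and 25.6%), beside 18.1% and 17.7% of all such models. Leaving out the 13 members this describes in either library, an alternative chosen after seeing the data, left 6 members at least 2-fold higher in molestus and 12 in quinquefasciatus. Those no longer counted were beta-arrestin-1 and the arrestin domain-containing CPIJ011879, and CPIJ011573, phospholipase C delta and the guanylate cyclase CPIJ001417. Whether shared sequence, divergence between the taxa or wrong gene models goes with the gaps was not tested.

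**Figure D5:**
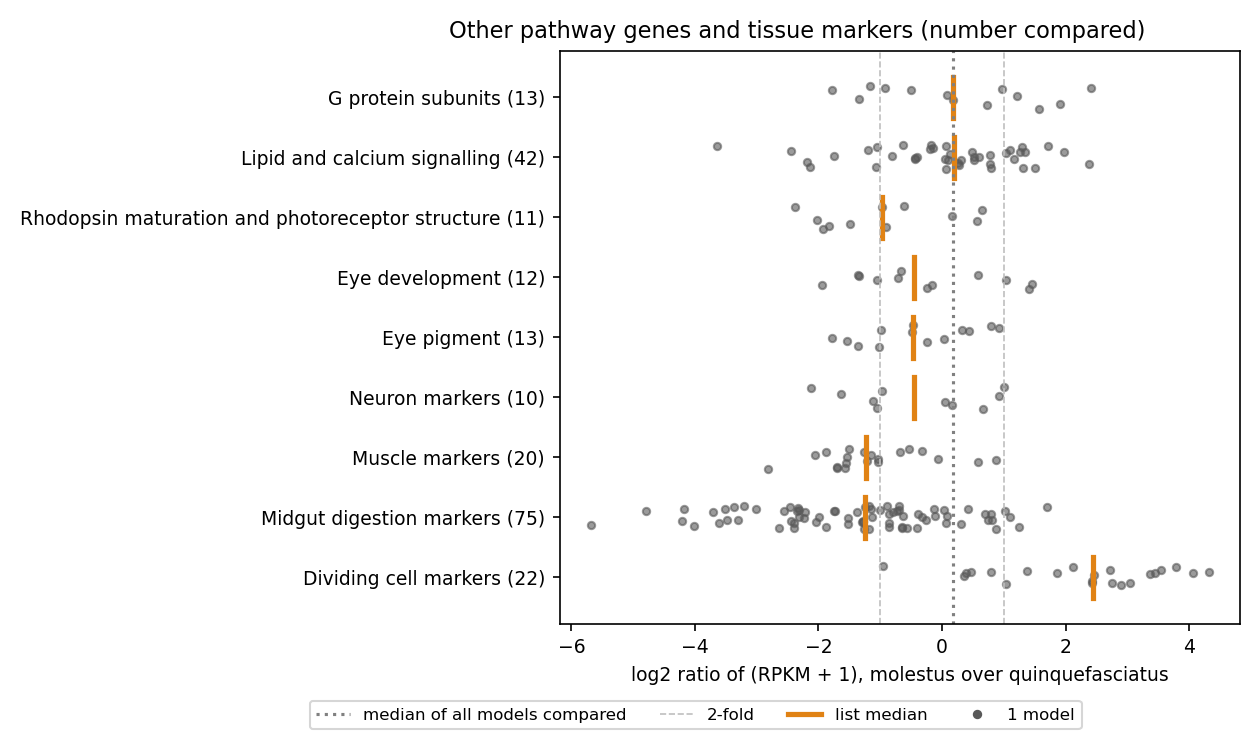
Log2 ratio of (RPKM + 1), molestus over quinquefasciatus, of compared models in 5 lists of other pathway genes and 4 lists of tissue markers, with the list median as an orange bar, 2-fold as dashed lines and the median of all compared models (0.18) as a dotted line. The list of rhodopsin maturation and photoreceptor structure has a median of -0.97, the muscle and midgut lists have medians of -1.24 and -1.25, and the dividing cell list stands apart at 2.45.

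Other genes of the pathway were taken from lists of product names, which mix genes of the photoreceptor with genes used in many tissues. In the list of rhodopsin maturation and photoreceptor structure, 0 of 11 compared models were at least 2-fold higher in molestus and 5 in quinquefasciatus (0% and 45.5%, beside 22.8% and 18.0% of all models). Chaoptin, a surface protein that holds photoreceptor membranes together in Drosophila, was represented there by several models. CPIJ000316 had 1.16 RPKM in molestus, against 10.2 RPKM in quinquefasciatus, a fold of 0.114 (0.0634 to 0.191). CPIJ012887 had 1.77 RPKM in molestus, against 9.56 RPKM in quinquefasciatus, a fold of 0.185 (0.141 to 0.239). CPIJ017601 had 4.48 RPKM in molestus, against 21.3 RPKM in quinquefasciatus, a fold of 0.210 (0.153 to 0.284). Another chaoptin (CPIJ019816) had 0 reads in molestus and 1 read in quinquefasciatus. Calnexin (CPIJ009164), a general chaperone of the endoplasmic reticulum, had 110 RPKM in molestus, against 169 RPKM in quinquefasciatus, a fold of 0.648 (0.613 to 0.685). A model described only as scavenger receptor (CPIJ009115) was also among the 5 counted in quinquefasciatus. It had 15 reads in molestus and 71 reads in quinquefasciatus, a fold of 0.219 (0.117 to 0.387). Prominin went apart by model. CPIJ002145 had 20.7 RPKM in molestus, against 12.8 RPKM in quinquefasciatus, a fold of 1.62 (1.41 to 1.85). The prominin-1 model CPIJ008251 had 4.31 RPKM in molestus, against 17.8 RPKM in quinquefasciatus, a fold of 0.241 (0.196 to 0.296). NINAC (CPIJ005840) had 19.8 RPKM in molestus, against 38.1 RPKM in quinquefasciatus, a fold of 0.521 (0.481 to 0.565).

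G protein subunits went both ways and had a median of 0.18, equal to that of all models. Of 13 compared, 4 were at least 2-fold higher in molestus and 3 in quinquefasciatus (30.8% and 23.1%, beside 22.8% and 18.0% of all models). G(q) alpha (CPIJ010818) had a fold of 0.525 (0.508 to 0.542). The gamma-e subunit (CPIJ000394), named after the eye-enriched gamma subunit of Drosophila, had 163 RPKM in molestus, against 417 RPKM in quinquefasciatus, a fold of 0.391 (0.362 to 0.422). By contrast G(S) alpha (CPIJ006458), which couples receptors to adenylyl cyclase, had 101 RPKM in molestus, against 51.2 RPKM in quinquefasciatus, a fold of 1.98 (1.79 to 2.19), and a beta subunit (CPIJ002520) had 44.8 RPKM in molestus, against 11.2 RPKM in quinquefasciatus, a fold of 3.98 (3.25 to 4.91).

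In lipid and calcium signalling 11 of 42 models were at least 2-fold higher in molestus and 8 in quinquefasciatus, with a median of 0.20. These shares, 26.2% and 19.0%, lie near the 22.8% and 18.0% of all models. Calmodulin itself, a calcium sensor of all cells, went apart by model: CPIJ018366 had 541 RPKM in molestus, against 387 RPKM in quinquefasciatus, while CPIJ007602 had 34.5 RPKM in molestus, against 443 RPKM in quinquefasciatus, a fold of 0.0779 (0.0685 to 0.0884). The calmodulin-dependent kinase CPIJ017648 had 195 RPKM in molestus, against 157 RPKM in quinquefasciatus. A protein kinase C (CPIJ020037) was furthest in the other direction, with 33.6 RPKM in molestus, against 5.65 RPKM in quinquefasciatus, a fold of 5.95 (4.61 to 7.78). Histidine decarboxylase (CPIJ009897), which makes histamine, the transmitter of insect photoreceptors, had 5 reads in molestus and 0 reads in quinquefasciatus. A histamine H2 receptor (CPIJ003188) had 0 reads in molestus and 43 reads in quinquefasciatus.

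Genes of eye development had a median of -0.45. Of 12 compared, 3 were at least 2-fold higher in molestus and 4 in quinquefasciatus (25% and 33.3%, beside 22.8% and 18.0% of all models). Eyes absent (CPIJ004824), part of the gene network that specifies the eye, had 2.24 RPKM in molestus, against 11.5 RPKM in quinquefasciatus, a fold of 0.195 (0.104 to 0.341). Prospero (CPIJ004053) had 20.8 RPKM in molestus, against 54.6 RPKM in quinquefasciatus, a fold of 0.382 (0.302 to 0.480). A model named protein glass (CPIJ006854), after a Drosophila regulator of photoreceptor genes, had 90.8 RPKM in molestus, against 33.7 RPKM in quinquefasciatus, a fold of 2.70 (2.38 to 3.06), opposite to the opsins. Son of sevenless (CPIJ005593), a Ras activator used in many tissues, had 50.7 RPKM in molestus, against 17.8 RPKM in quinquefasciatus, a fold of 2.84 (2.62 to 3.08). Eye pigment genes had a median of -0.46. Of 13 compared, 0 were at least 2-fold higher in molestus and 4 in quinquefasciatus (0% and 30.8%, beside 22.8% and 18.0% of all models). The white proteins, transporters of pigment precursors in Drosophila, included CPIJ014443, with 18.4 RPKM in molestus, against 37.5 RPKM in quinquefasciatus. CPIJ012364 had 3.56 RPKM in molestus, against 14.7 RPKM in quinquefasciatus. The white protein CPIJ012372 went the other way, with 8.06 RPKM in molestus, against 3.80 RPKM in quinquefasciatus, a fold of 2.12 (1.58 to 2.87). Its log2 ratio of (RPKM + 1) was 0.92, so it was not counted. Sepiapterin reductase (CPIJ000511) had 59.6 RPKM in molestus, against 33.9 RPKM in quinquefasciatus, and a kynurenine transaminase (CPIJ008201) had 47.5 RPKM, against 37.7 RPKM.

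Markers of other tissues differed between the libraries as well. Neuron markers had a median of -0.46, with 1 of 10 at least 2-fold higher in molestus and 4 in quinquefasciatus (10.0% and 40.0%). Over all models these shares were 22.8% and 18.0%. The summed level of neuron markers was 215 RPKM in molestus and 188 RPKM in quinquefasciatus. A model described as vesicle-associated membrane protein/synaptobrevin-binding protein (CPIJ019990) held much of that sum, with 146 RPKM in molestus, against 72.4 RPKM in quinquefasciatus. A synaptotagmin (CPIJ004781), a calcium sensor of synaptic vesicles, had 10.8 RPKM in molestus, against 50.6 RPKM in quinquefasciatus. Of the 10 compared neuron models, 5 had a ratio above 0 and 5 below 0. Protein elav (CPIJ008385) had 63 reads in molestus and 37 reads in quinquefasciatus, a fold of 1.77 (1.16 to 2.73). The vesicular acetylcholine transporter (CPIJ001607) had 30 and 8 reads in the same order, a fold of 3.90 (1.74 to 9.83). The summed level of muscle markers was 1162 RPKM in molestus and 2504 RPKM in quinquefasciatus. At least 2-fold higher in molestus were 0 of 20, and 14 in quinquefasciatus (0% and 70.0%). Midgut digestion markers summed to 2479 RPKM in molestus and 14922 RPKM in quinquefasciatus. Of 75 compared, 4 were at least 2-fold higher in molestus and 43 in quinquefasciatus (5.33% and 57.3%). This list, matched on names, also held models described as antichymotrypsin or antitrypsin, which are not digestive enzymes. Among those higher in molestus was such a model (CPIJ016298), with 13.2 RPKM in molestus, against 3.40 RPKM in quinquefasciatus. Dividing cell markers summed to 6144 RPKM in molestus and 1056 RPKM in quinquefasciatus. Of 22 compared, 17 were at least 2-fold higher in molestus and 0 in quinquefasciatus (77.3% and 0%). Reads were found for 11 and 12 of 12 neuron models, 24 and 23 of 24 muscle models, 95 and 104 of 113 midgut models, and 24 and 28 of 28 dividing cell models, in molestus and in quinquefasciatus. The ratio of summed read shares was 0.505 (0.501 to 0.508) for opsins and 0.430 (0.427 to 0.433) for arrestins. Among the marker lists it was 0.507 (0.498 to 0.516) for muscle, 0.890 (0.830 to 0.955) for neuron and 0.169 (0.167 to 0.171) for midgut. For dividing cell markers it was 5.59 (5.51 to 5.68). The neuron ratio rests largely on CPIJ019990, which is named for binding synaptobrevin and need not mark neurons. It had 971 of the list's 1468 reads in molestus and 499 of 1713 in quinquefasciatus. Its fold was 2.02 (1.81 to 2.26), opposite in direction to the opsins. The part that tissue makeup has in the lower opsin and arrestin levels of molestus was not tested.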

How the data were processed

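Per the labels' protocols, RNA was extracted with TRIzol and made into non-directional Illumina libraries, so reads of overlapping antisense genes cannot be told apart. For each transcript model the authors deposited a count of unique reads, its RPKM and the percent of its length covered, per the file headers. The listed counts summed to the library totals in the headers, and RPKM recomputed from them were the same within rounding. Aligner, counting tool and model release were not given in the sources used here. Both tables were joined on model identifier, with an unlisted model taken as 0 reads, and members were found by a text pattern on the description. Of the 69 members, 0 matched an identifier in the RefSeq gene table, so no coordinates are given. Members, classes and lists were chosen with earlier results of these data known.

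Log2 ratios used a pseudocount of 1 RPKM and a minimum of 1 RPKM in at least 1 library. Intervals of single folds are exact conditional binomial intervals (Clopper-Pearson), and those of levels from the Poisson distribution. With 1 library per taxon a quasi-likelihood test was not run. All opsins and arrestins were named, as was every other member with at least 10 RPKM in either library, or with at least 50 reads in the higher library and a 2-fold ratio, and, per list of other pathway genes, the 3 most abundant models and the model furthest in each direction at 10 RPKM and 50 reads. Where more are named, counts or further models of the same name or list made them so. Random placement assumed reads of 90 bases, the length covered by models with 1 read. Alternatives were pseudocounts of 0.1 and 10, other minimum levels, a 4-fold threshold, floors of 3 and 10 reads for 0, and 3 rescalings: the median ratio, TMM factors (edgeR 4.0.16; 1.09 for molestus, 0.919 for quinquefasciatus), and read totals after removing each library's 100 most abundant models. A planned comparison of protein sequences between opsins was not run. The procedure was tested on simulated counts. Calculations ran in Python 3.11.15 with pandas 2.3.3 and scipy 1.17.1.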

Additional observations from a re-analysis of the deposited data

How the results depend on the processing

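No paired analysis was possible because each taxon has 1 library, and no library could be left out. The rescalings shifted log2 ratios by -0.30 (median ratio), -0.24 (TMM) and -0.36 (without the most abundant models), and turned the median of all models to -0.0866, -0.0376 and -0.14. Of all models, 2914 and 2303 were at least 2-fold higher in molestus and in quinquefasciatus, and 1326 and 618 at a pseudocount of 10, 615 and 508 at 4-fold, 1908 in molestus without the most abundant models and 1139 in quinquefasciatus at a minimum of 10 RPKM. Of the folds of 35 members named by the rule with reads in both libraries, 0 changed direction under these 3. The same rescalings, added after seeing the data, were run on 20 genes of the other pathway lists named by the rule. They turned 2 folds, both without the most abundant models: the kynurenine transaminase CPIJ008201 (0.986) and the calmodulin-dependent kinase CPIJ017648 (0.968). The ratio of read shares, 0.505 for opsins, 0.430 for arrestins and 0.616 for other members, changed to 0.411, 0.350 and 0.501 with median scaling, 0.427, 0.364 and 0.520 under TMM, and 0.395, 0.336 and 0.481 without the most abundant models. With summed RPKM it was 0.459 for arrestins and 0.757 for other members. Members at least 2-fold higher in molestus numbered 8, and 4 by the median ratio, 4 without the most abundant models, 2 at a pseudocount of 10, 1 at a 4-fold threshold, and 4 without arrestin domain, retinal and retinoid members. Those higher in quinquefasciatus numbered 15, and 23 with median scaling, 23 under TMM, 24 without the most abundant models, 7 at a pseudocount of 10, 9 at a minimum of 10 RPKM, 3 at a 4-fold threshold and 9 without arrestin domain, retinal and retinoid members. The members' median of -0.67 was -0.16 at a pseudocount of 10, -0.43 without a filter, -0.88 at a minimum of 10 RPKM and -0.89 without the most abundant models. For opsins, the count higher in molestus was 0 at a pseudocount of 10, at a minimum of 10 RPKM and at 4-fold, and that in quinquefasciatus 2 at 4-fold. For arrestins, the count higher in molestus was 0 at a pseudocount of 10, under all 3 rescalings, at 4-fold and without unevenly covered members (chosen after seeing the data), and that in quinquefasciatus 0 at 4-fold. For other members, the count of 6 in molestus was 2 at a pseudocount of 10, 3 by the median ratio and without the most abundant models, and 1 at 4-fold. Their count of 8 in quinquefasciatus was 13 at a pseudocount of 0.1, 1 at 10, 3 at a minimum of 10 RPKM, 14 under each rescaling and 1 at 4-fold, and their median of -0.48 became 0.38 at a minimum of 10 RPKM. A pseudocount of 10 also shrank the medians of arrestins to -0.47, other members to -0.15, arrestin domain-containing models to -0.14, TRP channels to -0.28, phospholipase C to 0.80 and retinaldehyde-binding models to -0.16. Without a filter the TRP median was -0.23 and the opsin median -0.65. The arrestin domain median became 0.38 at a minimum of 10 RPKM, from 1 model. The median of 0.19 of the mixed retinal and retinoid class became -0.35 without a filter, -0.0253 by the median ratio and -0.0677 without the most abundant models. The cause of these changes was not tested. Depth limited the opsins and retinaldehyde-binding models with few reads: for a model of 1 kb, 3 reads are 0.307 RPKM in molestus and 0.295 RPKM in quinquefasciatus.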
